A study of Xenopus laevis and Xenopus tropicalis with 12 samples.

Results

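The genes described here are ligands of the transforming growth factor beta (TGF-beta) family, a convertase that cleaves them and a secreted inhibitor of Nodal. Each was measured in the animal and the vegetal hemisphere of frog oocytes. They were matched by symbol in the deposited annotation, from a list of names drawn up with earlier results of these data known: gdf1, gdf3, gdf9, bmp2, bmp4, bmp7, bmp15, inhbb, pcsk6 and dand5. Of these 10 symbols, 9 matched a gene model exactly, and bmp7 was present only as bmp7.1 and bmp7.2, so 11 of the 28165 gene models are described, 9 of them ligands.

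The study compared RNA between the pigmented animal and the yolk-rich vegetal hemisphere of hand-dissected oocytes. In Xenopus laevis, 8 libraries came from stage VI oocytes of 2 females, A and B, with 2 batches of oocytes from each (A_t1, A_t2, B_t1 and B_t2) and 1 animal and 1 vegetal library per batch. In Xenopus tropicalis, 4 libraries came from full-grown oocytes of 2 females, 1 and 2, with 1 animal and 1 vegetal library each. No strain, genotype or treatment was given by the labels, nor was the number of oocytes in a library.

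Ligands of this family are made as precursors that dimerise and are cut by proprotein convertases such as Pcsk6 to release the mature signal. The mature ligand brings together type I and type II receptor kinases, which phosphorylate Smad proteins: the Nodal, Activin and Vg1 branch uses Smad2 and Smad3, and the bone morphogenetic protein (BMP) branch uses Smad1, Smad5 and Smad9. In Xenopus, RNA of gdf1, long known as Vg1, is a classical vegetally localised message, and its protein is required for mesendoderm formation in the embryo, while Dand5 (Coco) is a secreted protein that binds and blocks Nodal and BMP ligands.

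Total counts per library ran from 30416352 to 45235154 in X. laevis and from 7772801 to 28392285 in X. tropicalis. Levels are in CPM, the read count per 1000000 counts of the library, after TMM scaling within a species; they are shares of a library, so more copies in a hemisphere and less of the other RNA there cannot be told apart, nor can fewer cells of a type and less RNA per cell. Scaling was done within a species, and X. laevis reads were counted on X. tropicalis gene models. Orders of levels across species below therefore describe CPM alone, and whether they reflect amounts of RNA was not tested. Oocyte markers (10 of 11 listed were found) were all above 0 in every group and summed to between 1265 and 2656 CPM in every library. Of 9 follicle cell markers, 7 were under 1 CPM in both X. laevis hemispheres. There the list summed to 81.5–155 CPM in animal libraries and to 296–367 CPM in vegetal ones. Nearly all of it was cyp17a1, and cyp11a1 was at 0 in the animal libraries. The next highest marker, star, had X. laevis means of 2.12 CPM (animal) and 1.39 CPM (vegetal). The sum therefore follows cyp17a1 and cannot by itself size follicle cell RNA. In X. tropicalis the same list summed to at most 2.12 CPM, with cyp17a1, cyp11a1, foxl2 and fshr at 0, and the part of follicle cell RNA in the results below was not tested. Connective tissue markers summed to 47.3–173 CPM, blood and endothelium markers to 10.9–43.7 CPM and immune markers to 3.798–5.76 CPM over all libraries. Most of the connective tissue sum was fn1, with group means from 60.6 to 124 CPM. In that list 5 of 8 markers in X. laevis and 7 of 8 in X. tropicalis were under 1 CPM in both hemispheres. The highest blood and endothelium marker was tek in X. laevis and slc4a1 in X. tropicalis.

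In both species, most of the members tested lay toward the vegetal hemisphere, and dand5 lay toward the animal one. This describes the chosen members and not the whole family. Further ligands outside the list could be tested for 4 models in X. laevis and 2 in X. tropicalis. By the test below, none of these was higher vegetally, and 1 was higher animally in X. tropicalis. In X. laevis, 9 of the 11 models passed the count filter; 6 were higher vegetally (gdf1, gdf3, gdf9, bmp2, bmp15 and pcsk6) and 1 higher animally (dand5) at an adjusted p under 0.05 in edgeR's quasi-likelihood test with the batch as a block, against 13.2% and 14.4% of the 14517 models tested. At a change of at least 2-fold as well, the counts were 5 and 1, against 3.01% and 3.58% of models. Of these, bmp2 fell just under 2-fold with scaling by library totals (log2 0.976) and without A_t1 (log2 0.9995). In X. tropicalis, 9 were tested with the female as a block; 5 were higher vegetally (gdf1, gdf9, bmp2, bmp15 and pcsk6) and 1 higher animally (dand5), against 15.6% and 17.3% of 12916 models. At 2-fold or more, the counts there were 2 and 1, against 3.29% and 3.63%. Without the female as a block the X. tropicalis counts were 2 (gdf1 and pcsk6) and 0, beside 174 and 88 of the 12916 models. Fits with 1 X. tropicalis library left out, also without the block, likewise called far fewer of all models than the main fit. The median log2 vegetal over animal ratio of the tested members was 1.05 for X. laevis and 0.38 for X. tropicalis, beside -0.01 over all models tested in either species. The p-values measure the spread of these libraries alone, and the batches of a female are not separate animals.

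**Figure D1:**
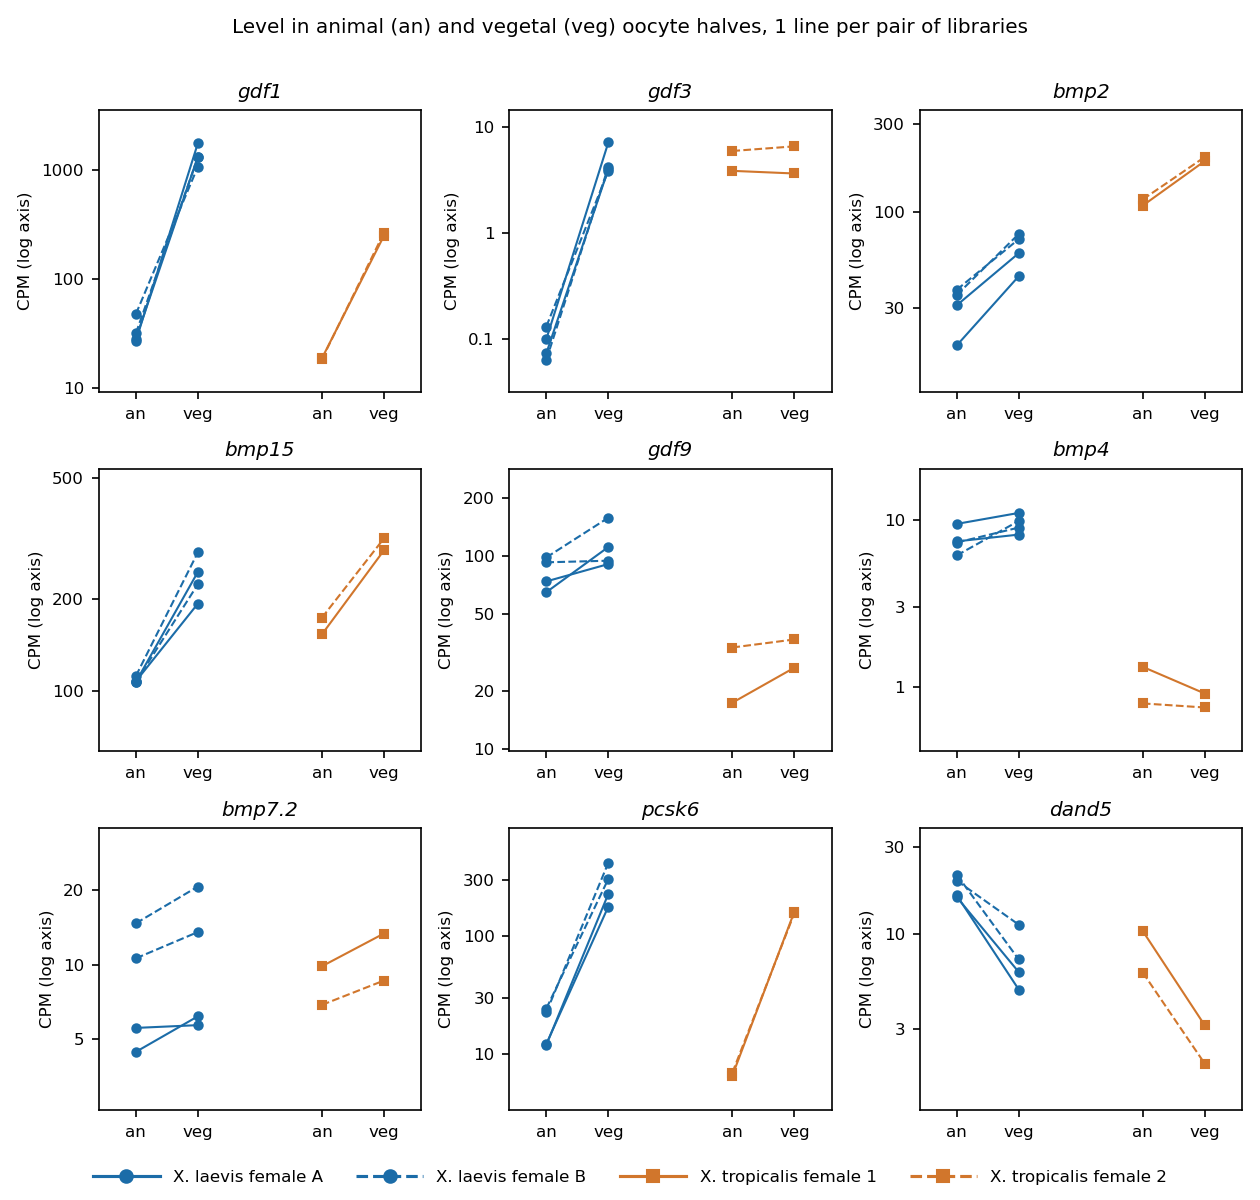
CPM (log axis) of the 9 tested members in the animal (an) and vegetal (veg) library of each pair; X. laevis in blue circles, X. tropicalis in orange squares, solid lines for female A or 1 and dashed lines for female B or 2. Lines of gdf1 and pcsk6 rise steeply in both species and those of dand5 fall, while gdf3 rises in X. laevis from at most 0.131 to at least 3.88 CPM and stays between 3.67 and 6.62 CPM in X. tropicalis.

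Of the ligands called vegetal in both species, gdf1 had the largest hemisphere difference. In X. laevis its level in the animal libraries of batches A_t1, A_t2, B_t1 and B_t2 was 28.6, 27.2, 47.8 and 31.9 CPM, and in the vegetal libraries 1314, 1745, 1065 and 1292 CPM. Every vegetal library was far above every animal one. The means were 33.9 ± 9.50 and 1354 ± 284 CPM (SD, n = 4 each), a log2 difference of 5.34 ± 0.25 (SE), or 40.4-fold, with an adjusted p of 8.59e-06 by edgeR's quasi-likelihood test. In X. tropicalis the animal libraries of females 1 and 2 had 18.8 and 18.5 CPM and the vegetal ones 248 and 264 CPM. Again the groups did not overlap, and both females gave nearly the same values. The X. tropicalis log2 difference was 3.79 ± 0.08, or 13.8-fold (edgeR adjusted p = 1.4e-96). In CPM, which was scaled within each species, the 4 species and hemisphere groups of gdf1 did not overlap between neighbours. They ran upward from X. tropicalis animal through X. laevis animal and X. tropicalis vegetal to X. laevis vegetal.

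The Vg1-related ligand gdf3 (known as derrière in Xenopus, with a role in posterior mesoderm) was vegetal in X. laevis alone by the tests within a species. Its X. laevis animal libraries held 3, 4, 2 and 6 counts in batch order, or 0.0733, 0.0996, 0.0634 and 0.131 CPM. The vegetal libraries held 142, 311, 152 and 157 counts, or 4.03, 7.202, 4.24 and 3.88 CPM. So nearly all X. laevis counts on the gdf3 model came from vegetal libraries: 762 against 15 over the 4 libraries of each hemisphere. In the same libraries gdf1 had 212012 vegetal and 5231 animal counts. In X. tropicalis gdf3 had 168 vegetal and 219 animal counts, beside 7487 and 759 of gdf1. Whether some gdf1 reads were counted on the gdf3 model was not tested. The log2 difference was 5.62 ± 0.25, or 49.2-fold (edgeR adjusted p = 6.98e-06), a size that rests on those few animal counts. In X. tropicalis the animal libraries of females 1 and 2 had 3.88 and 5.98 CPM and the vegetal ones 3.67 and 6.62 CPM, so that the hemispheres overlapped and female 2 was the higher in both. The log2 difference there was 0.08 ± 0.21 (edgeR adjusted p = 0.812), and it ran from -0.44 to 0.44 when 1 library was left out. The X. laevis vegetal, X. tropicalis animal and X. tropicalis vegetal levels all overlapped, and X. laevis animal stood below them.

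bmp2 and bmp15 were vegetal by a smaller factor, and in every pair of libraries. bmp2, a BMP ligand, had 18.9, 31.2, 35.5 and 37.9 CPM in the X. laevis animal libraries in batch order and 44.9, 59.9, 76.2 and 71.4 CPM in the vegetal ones. The lowest vegetal library was above the highest animal one, and batch A_t1 was the lowest in both hemispheres. Means were 30.9 ± 8.46 and 63.1 ± 13.9 CPM (SD, n = 4), a log2 difference of 1.05 ± 0.09 (edgeR adjusted p = 0.000163). In X. tropicalis bmp2 stood higher in both hemispheres than in either X. laevis one, at 109 and 117 CPM in animal and 190 and 200 CPM in vegetal libraries of females 1 and 2. The X. tropicalis log2 difference was 0.78 ± 0.06, or 1.72-fold (edgeR adjusted p = 2.59e-23).

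bmp15, which in mammals is secreted by the oocyte and acts on follicle cells, was nearly constant over the X. laevis animal libraries, at 108, 107, 112 and 107 CPM. Its vegetal libraries had 194, 246, 285 and 224 CPM, with no overlap. The log2 difference was 1.11 ± 0.10, or 2.16-fold (edgeR adjusted p = 0.000148). In X. tropicalis bmp15 rose from 153 and 174 CPM in animal to 289 and 316 CPM in vegetal libraries, a log2 difference of 0.89 ± 0.06 (edgeR adjusted p = 7.78e-29). Without the female as a block, edgeR's adjusted p in X. tropicalis was 0.0657 for bmp2 and 0.0595 for bmp15. With 1 X. tropicalis library left out and no block, bmp2 was called in none of 4 fits (log2 0.73 to 0.85, adjusted p 0.0558 to 0.451) and bmp15 only without the animal library of female 2 (log2 0.99, edgeR adjusted p = 0.0166; highest of the other fits 0.347).

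gdf9, the partner of bmp15 in mammalian oocytes, differed less between hemispheres. Its X. laevis libraries had 65.0, 73.9, 92.8 and 98.3 CPM in the animal and 111, 90.9, 94.6 and 158 CPM in the vegetal hemisphere. The groups overlapped, although the vegetal library was the higher in 4 of 4 pairs, by log2 0.03 in B_t1 to 0.78 in A_t1. The log2 difference of 0.45 ± 0.13 passed the test (edgeR adjusted p = 0.0386) but did not without A_t1 (0.0762), without A_t2 (0.103), without B_t2 (0.136), without the block (0.177), with scaling by library totals (0.0857) or in female B alone (0.272). X. tropicalis gdf9 had 17.4 and 33.6 CPM in animal and 26.5 and 37.0 CPM in vegetal libraries of females 1 and 2. Here too the hemispheres overlapped while the vegetal library was the higher in each female, and the log2 difference was 0.30 ± 0.10 (edgeR adjusted p = 0.0166; 0.958 without the block, 0.254 with DESeq2, 0.0815 with library totals and 0.0700 over models of at least 5 CPM). Its call was lost with each X. tropicalis library left out, and without the animal library of female 1 the log2 difference was -0.08. All 8 X. laevis libraries were above all 4 X. tropicalis ones for gdf9.

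The remaining ligands did not pass the test in either species. bmp4, a ventralising BMP ligand of the embryo, ranged from 6.12 to 9.44 CPM in animal and from 8.15 to 10.98 CPM in vegetal libraries of X. laevis. The log2 difference was 0.33 ± 0.12 (edgeR adjusted p = 0.0831), positive in 4 of 4 pairs. In X. tropicalis bmp4 was near 1 CPM, at 1.32 and 0.8003 CPM in animal and 0.917 and 0.757 CPM in vegetal libraries, with a log2 difference of -0.25 ± 0.45 (edgeR adjusted p = 0.729; -0.67 to 0.04 when 1 library was left out).

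bmp7.2, whose product can form dimers with other BMP ligands, separated the X. laevis libraries by female. Female A had 4.42 and 5.53 CPM in animal and 6.16 and 5.67 CPM in vegetal libraries, and female B had 10.6 and 14.7, then 13.5 and 20.7 CPM. All female B libraries were above all female A libraries, and the log2 difference between hemispheres was 0.35 ± 0.12 (edgeR adjusted p = 0.0611). X. tropicalis bmp7.2 had 9.84 and 6.85 CPM in animal and 13.4 and 8.61 CPM in vegetal libraries, a log2 difference of 0.38 ± 0.16 (edgeR adjusted p = 0.0615).

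bmp7.1 and inhbb fell under the count filter and were not tested. bmp7.1 had at most 8 counts in any library, with 15 counts over the X. laevis animal and 5 over the vegetal libraries, and 5 and 4 counts in X. tropicalis. inhbb, which encodes the beta B subunit of Activin and Inhibin, had a single count over all 12 libraries, in the X. laevis vegetal library of B_t2. A count of 0 allows a level of up to 0.0952 CPM in the shallowest X. laevis and 0.393 CPM in the shallowest X. tropicalis library (3 counts, counting error only), and inhbb was under that limit in every library. Reads of close relatives (gdf1 and gdf3, bmp2 and bmp4, bmp7.1 and bmp7.2) may have been split between models, and strand was not stated.

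pcsk6, which encodes a convertase (also called PACE4) that cuts TGF-beta family precursors, was strongly vegetal in both species. Its X. laevis animal libraries had 12.3, 12.004, 24.4 and 22.7 CPM and its vegetal libraries 178, 228, 305 and 418 CPM in batch order. Female B was above female A in both hemispheres, and the hemispheres were far apart in each female. Means were 17.8 ± 6.63 and 282 ± 105 CPM (SD, n = 4), a log2 difference of 3.99 ± 0.13, or 15.9-fold (edgeR adjusted p = 2.65e-06). In X. tropicalis pcsk6 had 6.61 and 6.99 CPM in animal and 161 and 157 CPM in vegetal libraries, a log2 difference of 4.53 ± 0.09, or 23.1-fold (edgeR adjusted p = 1.22e-95). pcsk6 and gdf1 kept their vegetal call in every alternative fit of both species. The order of levels was that of gdf1, from X. tropicalis animal to X. laevis vegetal without overlap.

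dand5, the Nodal and BMP inhibitor, was the member on the animal side. Its X. laevis animal libraries had 16.2, 15.9, 19.5 and 21.0 CPM and its vegetal ones 4.94, 6.16, 11.2 and 7.22 CPM. Every animal library was above every vegetal one, with the smallest gap in B_t1. The level fell by 1.35 ± 0.16 on the log2 scale toward the vegetal hemisphere, or was 2.55-fold lower there (edgeR adjusted p = 0.000628). In X. tropicalis dand5 had 10.3 and 6.12 CPM in animal and 3.14 and 1.94 CPM in vegetal libraries, a log2 difference of -1.68 ± 0.23, or 3.20-fold lower vegetally (edgeR adjusted p = 6.7e-11). That call was lost without the female as a block (adjusted p = 0.218) and with 1 library left out, except without the animal library of female 2 (log2 -2.05, edgeR adjusted p = 0.0434; highest of the other fits 0.884). The X. laevis vegetal and X. tropicalis animal levels of dand5 overlapped, between X. tropicalis vegetal below and X. laevis animal above.

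**Figure D2:**
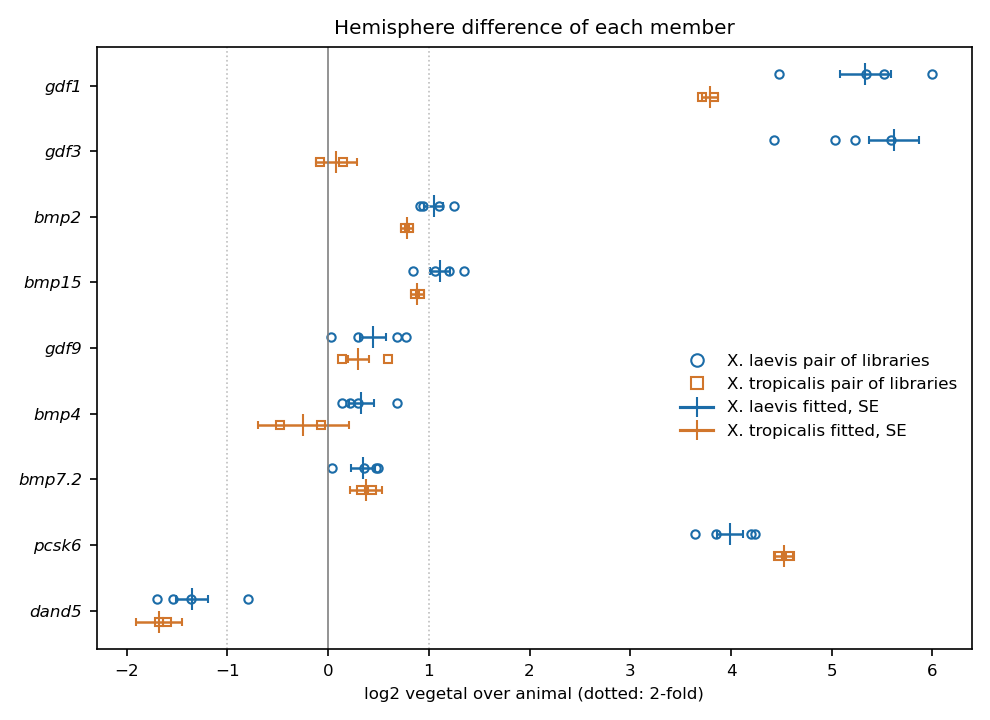
Log2 vegetal over animal ratio (x axis) of the 9 tested members (y axis); open symbols are pairs of libraries (prior count 2), bars the fitted difference with its SE, blue for X. laevis and orange for X. tropicalis, with dotted lines at 2-fold. gdf1 and pcsk6 lie beyond 3 in every pair of both species, gdf3 beyond 4 in X. laevis pairs and near 0 in X. tropicalis pairs, and dand5 below 0 in all 6 pairs.

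The species were then compared in the size of the hemisphere difference itself, in a fit of all 12 libraries with 6 blocks that assumes 1 spread for both species. Of the 9 members tested, 2 were less vegetal in X. tropicalis and 0 more so, against 6.70% and 5.77% of 11688 models. For gdf3 the difference in log2 ratio, X. tropicalis minus X. laevis, was -5.54 ± 0.34 (edgeR adjusted p = 7.84e-05). For gdf1 it was -1.55 ± 0.36 (edgeR adjusted p = 0.0235), and in X. laevis pairs the log2 ratio of gdf1 ran from 4.47 to 5.999 beside 3.71 and 3.83 in X. tropicalis. This gdf1 call was lost when X. tropicalis female 1 (-1.49) or female 2 (-1.61) was left out. Each of those fits holds 1 X. tropicalis pair and called far fewer of all models than the fit of 12 libraries. pcsk6 differed the other way by 0.55 ± 0.20 without passing (edgeR adjusted p = 0.117). The other 6 members had differences between -0.57 and 0.04 with adjusted p from 0.245 to 0.929. The same X. tropicalis gene models served both species, so the L and S copies of an X. laevis gene that has both were not told apart. By symbol among RefSeq genes, gdf1 and gdf3 have an S gene alone and pcsk6 an L gene alone. How well reads of each species were counted was not tested, nor whether gdf1 reads were counted on the gdf3 model.

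Between X. laevis females, no member passed the test of a difference in its hemisphere effect: edgeR gave 0 of 14517 models past an adjusted p of 0.05, with 254 at an unadjusted p under 0.05, and DESeq2 gave 4. Female B minus female A ran from -0.85 ± 0.31 for gdf1 (unadjusted p = 0.0242, edgeR adjusted p = 1) to 0.37 ± 0.31 for dand5. The gdf1 value depended on the batch: it was -1.28 (edgeR adjusted p = 0.00216) without B_t2, a fit that called 180 of 14314 models lower (1.26%), and -0.45 (adjusted p = 1) without B_t1. In both fits female B is a single batch, assumed to vary like those of female A. In female A alone its log2 difference between hemispheres was 5.76, and in female B alone 4.92.

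**Figure D3:**
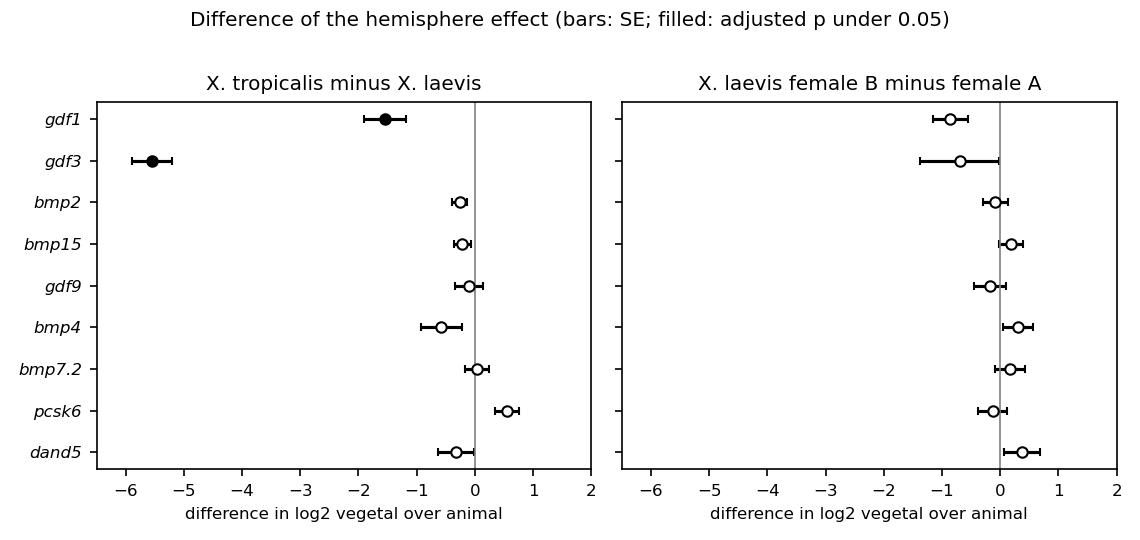
Difference in log2 vegetal over animal ratio (x axis, bars SE) of each tested member (y axis) between species, left, and between X. laevis females, right; filled points passed an adjusted p of 0.05. The gdf3 point lies at -5.54 and that of gdf1 at -1.55 in the comparison of species, both filled, and no point is filled in the comparison of females.

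Other genes of the pathway were called on both sides. Of 94 other models found for receptors, Smads, Smad regulators, further ligands, proteases and extracellular inhibitors, 58 were tested in X. laevis, with 11 higher vegetally and 6 animally (median log2 ratio 0.08), beside 13.2% and 14.4% of all models. In X. tropicalis 46 were tested, with 7 higher vegetally and 11 animally (median 0.01), beside 15.6% and 17.3%; the counts of the lists below are read against the same shares. Most of the further ligands were under the count filter: 4 of 29 models were tested in X. laevis and 2 in X. tropicalis. Beside them stood 7 ligands among the members tested in each species.

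Among 12 receptors and co-receptors tested in X. laevis, 3 were higher vegetally and 1 animally. The type I receptor acvr1, which acts in BMP signalling, rose from 91.0 ± 4.11 to 188 ± 21.6 CPM (SD, n = 4; log2 1.04 ± 0.09, edgeR adjusted p = 0.000124), and the TGF-beta type I receptor tgfbr1 was lower vegetally (log2 -0.70 ± 0.13, adjusted p = 0.00571). In X. tropicalis 2 of 9 were higher vegetally and 2 animally, with acvr2b, a type II receptor of Activin and Nodal, at log2 1.06 ± 0.20 (edgeR adjusted p = 5.34e-06) and acvr1 at 0.37 ± 0.08 (7.6e-05). Of 7 Smads, 3 were vegetal in X. laevis, among them the inhibitory smad7 (log2 1.62 ± 0.10, edgeR adjusted p = 3.24e-05) and the BMP effector smad1 (0.52 ± 0.08, 0.00292), and none was called in X. tropicalis.

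Of 14 Smad regulators and nuclear partners, 3 were vegetal and 3 animal in X. laevis, and 2 and 5 in X. tropicalis. vegt, a T-box transcription factor and classical vegetal message that is not itself a Smad partner, had a log2 difference of 4.23 ± 0.19 in X. laevis (edgeR adjusted p = 8.45e-06) and 2.25 ± 0.10 in X. tropicalis (1.91e-47). On the animal side were the corepressor tgif2 in X. laevis (log2 -0.97 ± 0.09, edgeR adjusted p = 0.000195) and the ubiquitin ligase smurf2 in X. tropicalis (-0.94 ± 0.13, 1.06e-10). In X. laevis smurf2 was vegetal (log2 0.51 ± 0.08, edgeR adjusted p = 0.00229), and the species difference of -1.45 ± 0.13 passed its own test (edgeR adjusted p = 0.000384). The tolloid protease bmp1, which cleaves Chordin, was present in both hemispheres and higher in the animal one, opposite to pcsk6. Its animal and vegetal means were 95.3 and 65.2 CPM in X. laevis (log2 -0.55 ± 0.08, edgeR adjusted p = 0.00195). In X. tropicalis they were 99.7 and 38.5 CPM (log2 -1.35 ± 0.08, edgeR adjusted p = 1.48e-36). bmp1 was the single called gene of 9 tested convertases and tolloid proteases in X. laevis, while in X. tropicalis 1 of 7 was vegetal, pcsk5 (log2 0.37 ± 0.10, edgeR adjusted p = 0.000801), and 2 were animal.

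Of 12 extracellular inhibitors and binding proteins in X. laevis, 2 were vegetal, the pseudoreceptor bambi (log2 0.64 ± 0.13, edgeR adjusted p = 0.0103) and the BMP-binding twsg1 (0.54 ± 0.14, 0.0234), and 1 was animal. In X. tropicalis 2 of 7 were vegetal and 1 animal, the latter twsg1 (log2 -0.50 ± 0.09, edgeR adjusted p = 2.4e-06). The vegetal count includes tmprss2, a serine protease that the name of the list does not describe. It had the highest value (log2 2.88 ± 0.13, edgeR adjusted p = 3.07e-48). Of the further ligands, bmp3 was animal in X. tropicalis (log2 -0.79 ± 0.20, edgeR adjusted p = 0.000469). With A_t2 left out, the X. laevis counts over all lists were 6 vegetal and 3 animal, in a fit that called 797 and 914 of 14440 models. In that fit tgfbr1 (edgeR adjusted p = 0.0524), bambi (0.0566) and twsg1 (0.111) were not called. Without B_t2 the vegetal count was 7, beside 1175 of 14314 models. With 1 X. tropicalis library left out, the fits called far fewer of all models than the main fit. Of the 9 X. tropicalis values named, none kept its call in all 4 fits that left out 1 library; vegt and tmprss2 each kept it in 3.

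**Figure D4:**
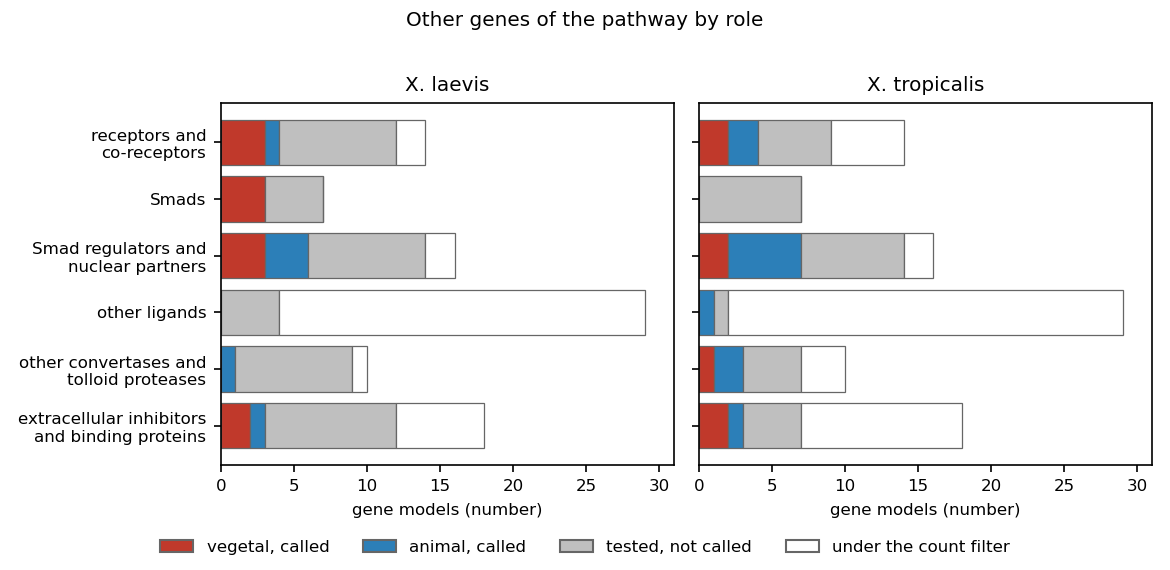
Number of gene models (x axis) in 6 lists of other pathway genes (y axis) that were higher vegetally (red), higher animally (blue), tested but not called (grey) or under the count filter (white), for X. laevis, left, and X. tropicalis, right. In X. laevis 3 of the 6 lists hold called models on both sides, and white makes up most of the further ligands, of which 4 and 2 of 29 were tested.

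For gdf1, pcsk6 and dand5, the members called in both species with the largest hemisphere differences, the log2 vegetal over animal ratios over the 6 pairs were set beside those of 7692 models tested in both species with a symbol and a mean of at least 5 CPM in each. The model nearest to gdf1 was dazl, which encodes a germ plasm RNA-binding protein, with a root mean square difference of 0.303 log2 units, followed by sybu at 0.594 and wnt11b, a Wnt ligand, at 0.746. Nearest to pcsk6 were the RNA helicase gene mov10 at 0.272, the receptor gene fgfr2 at 0.377 and the germ plasm gene dnd1 at 0.502. dand5 was closest to slx4 at 0.198, nup214 at 0.244 and lmf2 at 0.248. These are likenesses of 6 ratios from shared libraries and carry no test.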

How the data were processed

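The 12 RNA-seq libraries of oocyte hemispheres were analysed. For each library the authors deposited unnormalized read counts, all whole numbers, over 28165 X. tropicalis gene models. Per the submitters' processing notes, Bowtie2 2.1.0, edgeR and DESeq were used, with no role stated; genome build, counting program and strand setting were not given in the sources used here. Symbols came from the deposited annotation table, and a second deposited list of identifiers was not used. A RefSeq gene table (X. laevis v10.1) was used only for copies: 7 of the 11 member models have both an L and an S gene in it, 2 an L gene alone and 2 an S gene alone.

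Models were filtered per species with filterByExpr by hemisphere, scaled by TMM and tested with edgeR 4.0.16 (limma 3.58.1, R 4.3.3): a quasi-likelihood F test, Benjamini-Hochberg adjusted over all models tested. The SE is the log2 difference divided by the square root of F. Called means an adjusted p under 0.05. Ratios of single pairs used a prior count of 2. DESeq2 1.42.0 was an alternative, and figures used matplotlib 3.10.9. The procedure was tested on simulated counts with known changes in genes of ample counts, a fixed spread and no effect of female or batch. How the tests handle such effects or low counts was therefore not tested.

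Per the labels, the animal and the vegetal library of a pair share a batch of oocytes from 1 female (X. laevis) or a female (X. tropicalis), and this pairing was the block. Deviations from group means of paired libraries correlated at 0.701 to 0.844 for the X. laevis pairs and at 0.797 for those of X. tropicalis. Animal and vegetal libraries from different batches of the same X. laevis female correlated as highly (up to 0.833), so these values show what females share and not the batch; with 2 females the X. tropicalis deviations mirror each other by construction. The pairing rests on the labels. With 4 libraries, X. tropicalis tests have 1 residual degree of freedom per gene and lean on the spread pooled over genes. No libraries of a group were alike within sampling noise (chi-square per degree of freedom at least 11.3).

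Every member was described in every library. Of 6 lists of other pathway genes, the 2 called genes with the lowest adjusted p per list and species were named, and for gdf1, pcsk6 and dand5 the 3 models with the most similar ratios. Members and lists were chosen with earlier results of these data known. Alternatives were DESeq2, scaling by library totals, no filter, a mean of at least 5 CPM, no block, summed batches, each female alone and each replicate left out.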

Additional observations from a re-analysis of the deposited data

Results flagged for a closer look

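The hemisphere difference of gdf1 and gdf3 differed between species in a test of the difference itself. The log2 vegetal over animal ratio of X. tropicalis minus that of X. laevis was -1.55 for gdf1 and -5.54 for gdf3. Whether gdf1 reads counted on the gdf3 model had a part in the gdf3 value was not tested. The gdf1 call was lost when X. tropicalis female 1 (-1.49) or female 2 (-1.61) was left out. Those fits also called far fewer of all models. In the X. laevis vegetal libraries, gdf3 in batch A_t2 stood apart from the other batches at 7.202 CPM. In the X. laevis animal libraries, bmp15 in batch B_t1 stood apart at 112 CPM, from others that lie within 107 to 108 CPM. In all, 26 groups of 4 values were looked at, and chance flags about 1 in 20 such groups.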

How the results depend on the processing

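Over the alternatives tried, 321 of 373 values of members kept direction and call, 28 lost the call, 6 gained it and 18 changed sign; the cause was not tested. All 18 came from leaving out a replicate, and 1 of them, X. tropicalis gdf9, had been called. In X. laevis, gdf1, gdf3, bmp2, bmp15, pcsk6 and dand5 were called in every setting run; bmp4 and bmp7.2 gained a vegetal call with summed batches (edgeR adjusted p 0.0335 and 0.0236), and bmp7.2 with DESeq2 (0.0400); X. tropicalis bmp7.2 gained one with no count filter (0.0495). In X. tropicalis, with no replicate block by female the vegetal members fell from 5 to 2 and the animal ones from 1 to 0. At 2-fold or more the vegetal count stayed at 2 and the animal one fell from 1 to 0. Fits with 1 library left out had no block, and a lone library was assumed to vary like the others. Members lost calls in these fits too, and far fewer of all models were called than in the main fit. In those fits log2 differences changed sign for gdf3 (-0.437 to 0.438), bmp4 (-0.670 to 0.0409), gdf9 (range -0.0757 to 0.879, lowest without the animal library of female 1), acvr1 (-0.0754 without the vegetal library of female 1 and -0.0726 without the animal library of female 2, to 0.888) and tgif2 (-0.808 to 0.247, highest without the animal library of female 2). In the comparison of species, summed X. laevis batches gave 1 more vegetal member, pcsk6 (0.51, adjusted p = 0.00706, edgeR), in place of 0; a mean of at least 5 CPM left 1 less vegetal in place of 2, since gdf3 fell under it, and leaving out a replicate gave 1 to 2. Between X. laevis females leaving out a replicate gave 0 to 1. Leaving out a replicate also changed the sign of uncalled differences: between species, gdf9 (-0.303 to 0.165) and bmp7.2 (-0.0589 to 0.106); between females, gdf3 (-1.131 to 0.0403), gdf9 (-0.503 to 0.122), bmp2 (-0.254 to 0.0471), bmp7.2 (-0.0641 to 0.369), bmp15 (-0.0127 to 0.348), pcsk6 (-0.405 to 0.127) and dand5 (-0.0308 to 0.741). Of the other pathway genes, X. laevis had 3 vegetal in place of 11 with no block and 6 in either female alone; X. tropicalis had 2 vegetal and 1 animal in place of 7 and 11 with no block, 3 animal with DESeq2, and 1 to 2 and 0 to 2 with a library left out. Over all models, the X. laevis fit with no block called 899 of 14517 vegetal in place of 1922. With summed batches 3194 of 15758 were vegetal in X. laevis, and with DESeq2 2351 of 14517. Between species, summed X. laevis batches called 1770 of 12004 models more vegetal in X. tropicalis, in place of 674 of 11688. Female A alone gave 1094 of 14417 vegetal and female B alone 874 of 14512. The X. tropicalis fit with no block called 174 vegetal and 88 animal of 12916, in place of 2020 and 2236. Scaling by library totals moved the vegetal share of all calls from 47.8% to 35.5% in X. laevis and from 47.5% to 34.4% in X. tropicalis. The medians over all models were then -0.09 and -0.07, and no member changed direction under that scaling. At 5 CPM, gdf3 in X. laevis and bmp4 in X. tropicalis gave no value. The shallowest library, with 7772801 counts, limits what can be seen of bmp4, bmp7.1 and inhbb in X. tropicalis.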
